A study of Mus musculus with 104 samples.

Results

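Whole tissue hypothalamus mRNA was compared between middle-aged male BALB mice of 12 to 13 months and young male BALB mice of 2 to 3 months. The comparison holds the arrays titled for these ages, 5 middle-aged and 7 young, which are 12 of the 104 arrays of the series. Each array carries labelled total RNA of 1 sample in 1 colour (Cy3), read on an Agilent whole mouse genome array with 4 arrays per slide. All mice came from an aged rodent colony, were housed singly and carried no transgene or drug treatment in the labels, and the arrays were a random subset of mice whose home cage behaviour had been recorded beforehand. Another BALB group of 20 to 23 months (6 arrays) was normalized and fitted with them, and hypothalamus of male CBA mice of 2 to 3 months (7 arrays), 12 to 13 months (5 arrays) and 21 to 23 months (8 arrays) was read on another array design.

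The hypothalamus holds the neurons that set appetite, body temperature, water balance, sleep and reproduction, many of which are known by the peptide they release. Its resident immune cells are microglia, which prune and clear tissue and turn on a recognisable set of genes in ageing and disease, among them the integrin CD11c and lysosomal and antigen-presentation genes. Complement is a cascade of plasma proteins, made in the brain by glia, in which C1q starts the classical arm and C3 is the central component. The brain's outer covering and its vessels hold fibroblasts, mural cells and border macrophages, and these can enter a dissected block of tissue.

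Levels are log2 of the processed spot brightness after quantile normalization of the 18 BALB arrays, so a difference of 1 is 2-fold, and levels of different probes are not compared. On 11 of the 12 arrays, between 59.85% and 70.55% of 41174 probes were well above background, and the median correlation with arrays of the same age was 0.9839 to 0.9908. Young array 1 stood apart, with 89.29% of probes well above background and a median correlation of 0.9583. No pair of the 12 arrays correlated above 0.994. The scan headers give 3 days. Young arrays 2, 6 and 7 were scanned on a day with no middle-aged array, young arrays 1, 3 and 5 on the second day with middle-aged arrays 1 and 2, and young array 4 on the third day with middle-aged arrays 3, 4 and 5. Slide 2 held young array 4 with middle-aged arrays 3 and 4, and slide 4 held young array 1 with middle-aged arrays 1 and 2. No other slide held both ages, so a slide block compares them directly only through young arrays 1 and 4. Of 30 hypothalamic transcription factors listed to check the tissue, 27 were tested and 26 were well above background on all 12 arrays. So were 17 of 17 striatal, 17 of 22 cortical and hippocampal, 17 of 20 thalamic and 11 of 17 cerebellar genes tested. Detection alone therefore does not identify the tissue. Nothing in the labels says more of how the tissue blocks were cut.

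Middle-aged BALB hypothalamus differed from young in a small set of genes. Of 19272 genes tested, 45 had log posterior odds of differential expression (B) above 0, which is 0.233% of those tested. Of the 45, 38 were higher in middle age (0.197% of genes tested), by 0.29 to 2.56 on the log2 scale (1.22-fold to 5.88-fold, median difference 0.62). The other 7 were lower (0.0363% of genes tested), by -0.39 to -1.92 (median -0.46). Middle-aged and young arrays did not overlap in 31 of the 38 higher genes and in all 7 lower genes, where 0.898% of all genes tested lay wholly higher and 0.446% wholly lower without overlap. The genes were called on these same arrays, so the lack of overlap is not separate support for them. At an unadjusted p under 0.05, 7.39% of genes were higher and 4.28% lower by the probe shown for each gene, and the median difference of all genes was 0.02. Only 6 genes had a Benjamini-Hochberg adjusted p under 0.05 (limma), and the 45 lay between 0.00103 and 0.240 on that measure. The 6 were Cldn7, C3, 9430077A04Rik, Ccdc88, Itgax and Il33, all higher in middle age. The balance of directions depended on scaling. With arrays scaled to their 75th percentile, 25 genes were higher and 27 lower, with normexp background correction 20 and 7, and in the authors' own table of values 8 and 5. Without young array 1 the number of called genes was 129, without young array 4 it was 120 and without middle-aged array 5 it was 19. Of the 45 genes, 14 kept B above 0 on at least 1 probe in each of the 12 fits that left out 1 array. With scan day as a block the number called was 22, of which 13 were among the 45, and with that block and without young array 1 it was 52, of which 17 were. Of the called genes named below, Cldn7, C3, Itgax, 9430077A04Rik, Ccdc88, Prss50, ENSMUST00000035300, Apcdd1 and Flna kept B above 0 with the scan day block, and each of the others lost it. In bulk tissue, fewer cells of a type and less RNA per cell cannot be told apart, and this holds for every difference given here.

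**Figure D1:**
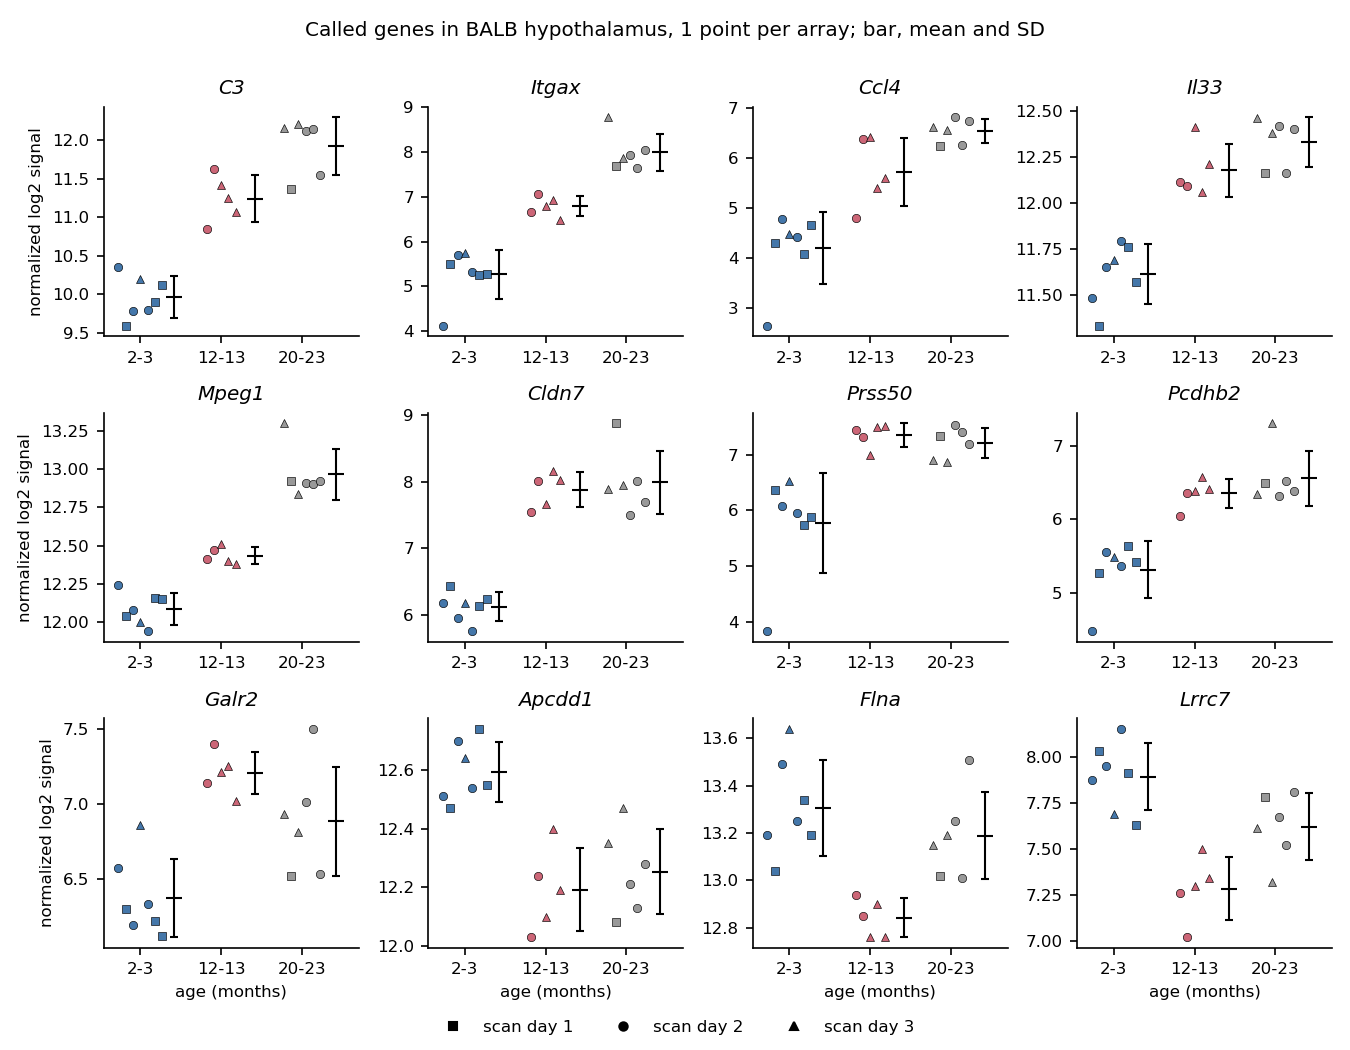
Normalized log2 signal (vertical axes, each with its own range) of 12 genes with B above 0 between middle-aged and young BALB hypothalamus, against age in months. Each point is 1 array, marker shapes give the scan day, and bars give mean and SD of each age group. For C3, the 5 middle-aged arrays lay between 10.84 and 11.62 and the 7 young arrays between 9.59 and 10.35, and for Flna the middle-aged arrays lay below the young ones.

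Of the 12 largest differences among the higher genes, 3 belonged to immune genes, Ccl4, Itgax and C3. C3, the central complement component, had a young level of 9.59 at the lowest, 9.90 at the median and 10.35 at the highest, and middle-aged arrays 1 to 5 read 10.84, 11.62, 11.42, 11.25 and 11.07. All 5 middle-aged arrays were above all 7 young ones. The difference was 1.28 ± 0.18 (SE, 95% interval 0.90 to 1.65), or 2.42-fold, with a limma adjusted p of 0.0203. It was 1.25 within the second scan day and 1.05 within the third. Itgax, which encodes the CD11c integrin, ran from 4.12 through a median of 5.31 to 5.75 in young mice and read 6.65, 7.06, 6.80, 6.92 and 6.49 on the middle-aged arrays. The ages did not overlap, and the lowest young value was that of young array 1. Its difference was 1.51 ± 0.24 (SE), or 2.85-fold, with a limma adjusted p of 0.0463, and 1.36 without young array 1. Both genes kept B above 0 in each of the 12 fits that left out 1 array and with scan day as a block (1.08 and 1.40). With slide as a fixed block C3 differed by 0.93 and lost its call. Itgax lost its call in 3 of the 10 other settings set for the fit, which were normexp background correction, the authors' table of values and the replicate block (1.52).

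The sequences before the starts of C3, Itgax and Il33, which were called together, are shown because immune genes are often read through short shared motifs. Each is the 250 bases upstream of a RefSeq transcription start on GRCm38.p6, 5′ to 3′ on the gene's own strand, in lower case with the one motif match in capitals. They lie at chr17:57228137-57228386 on the minus strand for C3, at chr7:128129300-128129549 on the plus strand for Itgax and at chr19:29945540-29945789 on the plus strand for Il33, and a window before another Il33 start, at chr19:29924863-29925112, held no match. The capitals mark a C/EBP match in C3 (bases -45 to -38, counted back from the start), an AP-1 match in Itgax (-56 to -50) and a C/EBP match in Il33 (-85 to -78). Windows before Mpeg1, another called immune gene, and before Galr2, also called, held no match and are not shown.
C3: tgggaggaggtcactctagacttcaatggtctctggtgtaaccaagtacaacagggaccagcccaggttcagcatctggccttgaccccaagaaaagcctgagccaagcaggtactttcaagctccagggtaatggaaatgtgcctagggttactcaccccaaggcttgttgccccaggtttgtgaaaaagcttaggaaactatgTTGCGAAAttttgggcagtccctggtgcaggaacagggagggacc
Itgax: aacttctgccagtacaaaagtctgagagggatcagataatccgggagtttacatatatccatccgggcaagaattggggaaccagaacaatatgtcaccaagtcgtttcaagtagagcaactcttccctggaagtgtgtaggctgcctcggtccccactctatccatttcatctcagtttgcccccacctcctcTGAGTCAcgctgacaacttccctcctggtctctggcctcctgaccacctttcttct
Il33: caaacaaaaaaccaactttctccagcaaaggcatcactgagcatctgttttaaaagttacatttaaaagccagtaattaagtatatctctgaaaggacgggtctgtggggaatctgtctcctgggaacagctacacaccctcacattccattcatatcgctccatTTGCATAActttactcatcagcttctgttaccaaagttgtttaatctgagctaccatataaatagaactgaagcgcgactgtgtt

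Of the genes tested, 11547 had such a promoter entry, including 23 of the 38 higher genes. The C/EBP letters TTGCNNAA were present, on either strand, in 9.24% of the 11547 and in 2 of the 23. The AP-1 letters TGANTCA were present in 5.85% and in 2 of the 23 (Havcr2 and Itgax). The PU.1 letters GAGGAAGT were present in 2.62% and in 1 (Havcr2), the interferon response letters (GAAA, any 2 bases, GAAA) in 3.22% and in 3, and the kappaB letters (GGG, any 2 bases, TTTCC) in 1.65% and in 0. These motifs were chosen with the sequences in view, and a match of letters is a description of the sequence and not a binding site.

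Other called immune genes had smaller or noisier differences. The chemokine gene Ccl4 lay between 2.64 and 4.78 in young mice (median 4.42), with 5 of the 7 young arrays well above background, and at 4.80, 6.38, 6.41, 5.39 and 5.60 in middle age. The lowest middle-aged value was thus only just above the highest young one. Its difference was 1.52 ± 0.33 (SE; limma adjusted p = 0.208), and over the 12 fits that each left out 1 array it ran from 1.30 to 1.75, with the call lost without young array 6 or any 1 of middle-aged arrays 2 to 5. With scan day as a block Ccl4 differed by 1.48 with B of -1.38. Il33, an alarm cytokine held in the nuclei of glia, lay between 11.33 and 11.79 in young mice (median 11.65) and read 12.11, 12.09, 12.41, 12.06 and 12.21 in middle age, a difference of 0.57 ± 0.09 (SE; limma adjusted p = 0.0463) that was 0.48, with B of -0.02, with scan day as a block. Mpeg1, a pore-forming protein of macrophages and microglia, was higher by 0.35 ± 0.08 (SE; limma adjusted p = 0.240), from 11.94 to 12.24 in young mice against 12.38 to 12.51, and of the 12 fits (0.32 to 0.37) only the one without young array 1 kept its call. Outside the rule for named genes, and chosen after their values were seen, Havcr2 (the immune checkpoint receptor TIM-3) was higher by 0.57 ± 0.12 and Nr1h3 (the sterol-sensing receptor LXR alpha) by 0.36 ± 0.08 on the log2 scale. Nr1h3 (0.33 to 0.43 over the 12 fits) kept its call only without young array 4 or middle-aged array 3, and Havcr2 (0.52 to 0.63) lost it without middle-aged array 1, 4 or 5.

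As a group, the immune genes that the study names were higher in middle age. Of 38 tested, 36 were well above background on all 12 arrays, 35 had a higher middle-aged mean, and the median difference was 0.30 (1.23-fold, range -0.08 to 1.51), against 0.02 for all genes. Called genes were C3, Itgax and Mpeg1, 3 of 38, where 0.197% of all genes were called higher. At an unadjusted p under 0.05, 20 were higher and 0 lower, where 7.39% of all genes were higher and 4.28% lower. The study chose this list on older against young mice that include these 7 young arrays, so it is not independent evidence of a direction. The mean level of the list, each gene centred, lay between -0.61 and -0.26 on young arrays and between -0.18 and 0.08 on middle-aged arrays. The groups did not overlap. Its median difference was 0.35 without young array 1, 0.29 with scan day as a block, 0.34 within the second scan day and 0.21 within the third. Uncalled members of this list with the smallest p were Ctss (cathepsin S, higher by 0.33, measured on 6 young and 4 middle-aged arrays after outlier spots were left out), Ccl6 (0.52) and Clec7a (the beta-glucan receptor Dectin-1, 1.03 ± 0.29), with limma adjusted p of 0.240, 0.240 and 0.307.

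**Figure D2:**
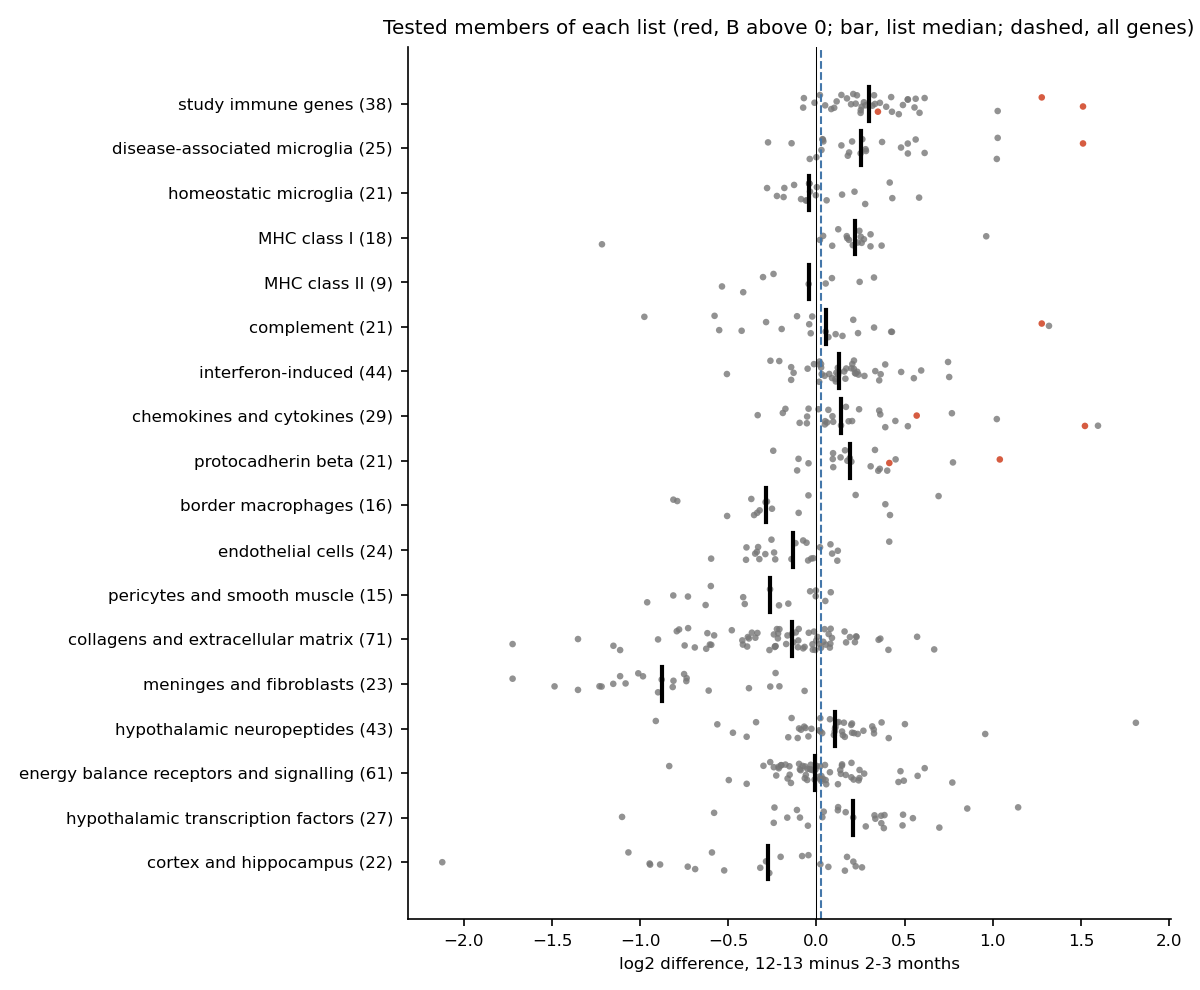
Each point is a tested gene of the list named at left (number tested in brackets), placed by its log2 difference between 12-13 and 2-3 months. Red points have B above 0, black bars are list medians and the dashed line is the median of all genes. The study's immune genes had a median of 0.30 and the meningeal and fibroblast genes a median of -0.88.

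The immune lists did not move as one block. Over all genes, 0.197% were called higher and 0.0363% lower, and 7.39% were higher and 4.28% lower at an unadjusted p under 0.05. List counts in this paragraph and the next stand beside those shares. Genes of disease-associated microglia had a median of 0.25 over 25 tested, with 21 higher, 1 called (Itgax) and 8 higher and 0 lower at an unadjusted p under 0.05. Trem2, the lipid receptor that drives this state, differed by 0.25 ± 0.08 (limma adjusted p = 0.326). Homeostatic microglial genes had a median of -0.04 over 21 tested, with 0 called in limma, 3 higher and 1 lower at an unadjusted p under 0.05. Slc2a5 differed by 0.42, Laptm5 by 0.43, Aif1 by 0.22 and P2ry12, the purinergic receptor of resting microglia, by -0.28. The mean level of the homeostatic list lay between -0.06 and 0.02 in middle age and between -0.46 and 0.10 in young mice, with the lowest value on young array 1. MHC class I genes, which present peptides made within a cell, had a median of 0.22, with 17 of 18 tested above 0, 0 called in limma and 3 higher at an unadjusted p under 0.05, namely H2-T10 (0.31), H2-M3 (0.31) and the peptide transporter Tap2 (0.96). H2-T24 differed by -1.22 and was well above background on 4 of 7 young and 1 of 5 middle-aged arrays. Probes of near-identical class I genes may share signal.

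MHC class II genes, which display peptides taken up by antigen-presenting cells, showed 0 calls in limma and 0 of 9 at an unadjusted p under 0.05 in either direction, with a median of -0.04. The invariant chain gene Cd74 differed by -0.54 (95% interval -1.23 to 0.16), H2-Eb1 by -0.42, H2-Ab1 by -0.24 and H2-Oa by 0.33. These sizes moved with single arrays. Without young array 1 they were -0.35, -0.16, -0.06 and 0.11, and without middle-aged array 5 they were -0.36, -0.17, -0.19 and 0.22. The list median was -0.14 with scan day as a block. Complement genes had 1 call of 21 (C3), 6 higher and 2 lower at an unadjusted p under 0.05 and a median of 0.05, which was -0.03 under 75th percentile scaling and with scan day as a block, and 0.01 without young array 1. The C1q chains C1qb and C1qc differed by 0.33 ± 0.10 and 0.43 ± 0.14 and C4b by 0.42 ± 0.14, with limma adjusted p from 0.341 to 0.351. Interferon-induced genes had a median of 0.12 over 44 tested (0.19 without young array 1, 0.20 within the second scan day and 0.04 within the third), with 0 called in limma and 7 higher and 0 lower at an unadjusted p under 0.05. The immunoproteasome subunits Psmb8 and Psmb9 differed by 0.55 and 0.48, Ly6e by 0.21 and Lgals3bp by 0.22. Chemokines and cytokines had 2 calls of 29 (Ccl4 and Il33), 7 higher at an unadjusted p under 0.05 and a median of 0.14, which was 0.03 with scan day as a block. Ccl8 differed by 1.60 ± 0.40 (limma adjusted p = 0.240) with 4 of 7 young arrays well above background, and by 0.50 with normexp background correction. Lymphocyte markers were not called, with 0 of 15 T and NK cell genes (limma, and 0 at an unadjusted p under 0.05) and 0 of 11 B and plasma cell genes (limma, and 1 at an unadjusted p under 0.05), whose median of 0.17 was 0.02 without young array 1 and 0.45 with scan day as a block. The 8 red blood cell genes tested had a median of -0.05 and 0 at an unadjusted p under 0.05.

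**Figure D3:**
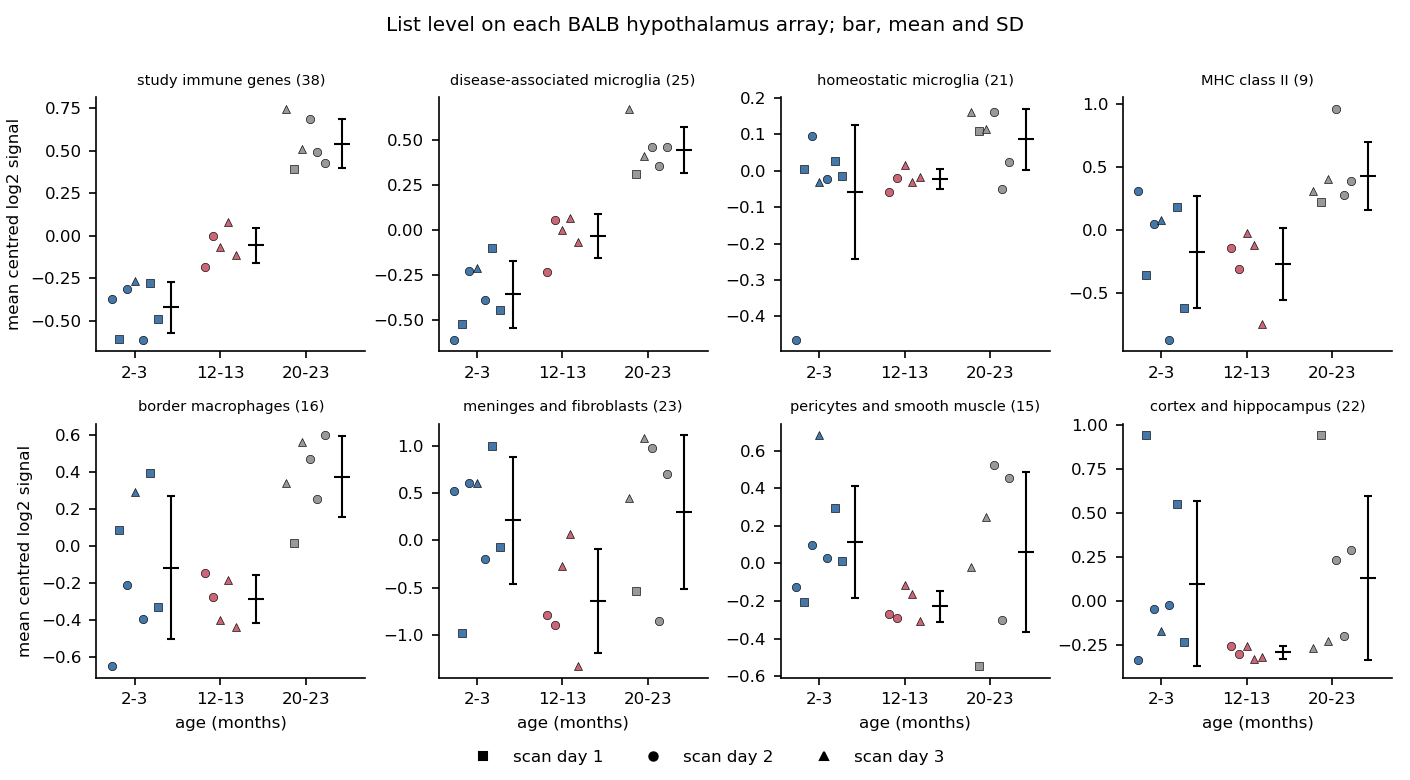
Mean level of each list on each BALB hypothalamus array, with every gene centred on its mean over arrays (vertical axes, log2 units with their own range), against age in months. Points are arrays, shapes give the scan day, and bars give mean and SD. Study immune genes lay between -0.61 and -0.26 in young mice and -0.18 and 0.08 in middle age, while levels of the other 7 lists overlapped between these ages.

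The strongest single difference by test was not an immune gene. Cldn7, a claudin of epithelial tight junctions, lay between 5.75 and 6.44 in young mice (median 6.17) and read 7.55, 8.01, 7.67, 8.16 and 8.02 in middle age. Every middle-aged array was above every young one by more than 1 log2 unit. The difference was 1.76 ± 0.19 (SE, 95% interval 1.36 to 2.16), or 3.39-fold, with a limma adjusted p of 0.00103, and it was 1.83 within the second scan day and 1.78 within the third. Cldn7 was called in each of the 12 fits that left out 1 array and in all 10 other settings set for the fit, and with scan day as a block. Of the epithelial lists, choroid plexus had a median of 0.20 over 13 tested and ependymal cells and cilia 0.15 over 14, both with 0 called in limma. At an unadjusted p under 0.05, 3 and 0 genes were higher, where 7.39% of all genes were. Without young array 1 these medians were 0.10 and 0.29, with scan day as a block 0.16 and 0.03, and within the third scan day 0.02 and 0.00. The first 30 of the 60 bases of the Cldn7 probe are shown, as are those of the A530053G22Rik probe after its values, since the signal is that of these bases. The 250 bases before one of the 2 annotated Cldn7 starts, at chr11:69964529-69964778 on the plus strand of GRCm38.p6, are also shown, with the interferon response match (bases -143 to -134) in capitals, and the window before the other start, at chr11:69965171-69965420, held no match.
Cldn7 probe: taaccccttgacgcccatgaacgttaagta
Cldn7 promoter: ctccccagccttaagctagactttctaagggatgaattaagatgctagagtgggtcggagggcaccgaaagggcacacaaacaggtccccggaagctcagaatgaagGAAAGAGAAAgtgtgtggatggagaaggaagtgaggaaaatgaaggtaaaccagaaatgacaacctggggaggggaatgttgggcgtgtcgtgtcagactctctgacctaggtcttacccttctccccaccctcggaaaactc

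Several of the largest differences belonged to little-described or dim transcripts. A530053G22Rik had the largest difference, 2.56 ± 0.56 (SE; limma adjusted p = 0.208), but it lay between 2.01 and 6.02 in young mice (median 4.38), with 4 of the 7 well above background, and read 7.49, 5.55, 6.19, 6.40 and 7.20 in middle age. The 2 ages overlapped, and the call held in 6 of the 12 fits (2.23 to 2.89). 9430077A04Rik lay between 3.52 and 5.10 in young mice, with 4 of the 7 well above background, and read 6.20, 6.13, 5.84, 6.26 and 6.54 in middle age, a difference of 1.72 ± 0.25 (limma adjusted p = 0.0222) that was 0.55 with normexp background correction. The transcript named only ENSMUST00000035300 differed by 1.55 ± 0.32, and its call held in 8 of the 12 fits and in 3 of the 9 other settings that tested it. Its ages overlapped, with young array 1 at 5.65 and middle-aged array 5 at 5.39. D17H6S56E-5 differed by 0.90 ± 0.21, and its call held in 2 of the 12 fits (without young array 2 or 4) and in 2 of 9 other settings, with 0.67 and B of -2.45 with scan day as a block. Prss50, a serine protease, was higher on both of its probes, by 1.58 ± 0.33 and 1.03 ± 0.20, and ran from 3.83 through a median of 5.96 to 6.52 in young mice against 7.44, 7.31, 7.00, 7.50 and 7.51. The value of 3.83 was that of young array 1, and the difference without that array was 1.29. At least 1 of the 2 probes kept B above 0 in each of the 12 fits and with scan day as a block, and neither did with slide as a fixed block or with the replicate block. Sh3bgr differed by 1.04 ± 0.20 and was called in all 12 fits, in 6 of 10 other settings and not with scan day (0.86), slide (0.74) or the replicate number (1.01) as a block. Here too the ages overlapped, with young array 4 at 7.35 and middle-aged values from 7.21 to 7.78. Ela1, an elastase gene, differed by 1.01 ± 0.21, with its call held in 6 of the 12 fits and 4 of 10 other settings.
A530053G22Rik probe: ttgatgttgattcaagcctgtaaacaaagg

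Protocadherin beta genes encode clustered cell adhesion proteins that give neurons distinct surfaces. Of 21 tested, Pcdhb2 and Pcdhb14 were called higher, 6 were higher and 1 lower at an unadjusted p under 0.05, and the median was 0.19. Over all genes, 0.197% were called higher, and 7.39% were higher and 4.28% lower at that p. Pcdhb2 lay between 4.47 and 5.63 in young mice (median 5.42) and read 6.04, 6.36, 6.38, 6.57 and 6.41 in middle age, a difference of 1.04 ± 0.19 (limma adjusted p = 0.120). It was called in all 12 fits but in 6 of 10 other settings, and not with scan day (0.98, B of -0.04) or slide (1.08) as a block. Pcdhb14 lay between 8.45 and 8.77 and from 8.90 to 9.27 in middle age, a difference of 0.41 ± 0.09 (limma adjusted p = 0.240), and kept its call only without young array 1 or 4 (0.35 to 0.44 over the 12 fits). Neither gene overlapped between the ages. Pcdhb21 and Pcdhb22 differed by 0.36 and 0.33. The list median was 0.10 without young array 1, where its mean level was the lowest of all young arrays (-0.73), and 0.06 under 75th percentile scaling. Probes of this family may share signal, as its members are alike in sequence.

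Among receptors, Galr2 and Fgfr4 were called and, like Ccdc88, are named after their values were seen. Galr2, a receptor of the peptide galanin, lay between 6.12 and 6.86 in young mice (median 6.30) and read 7.14, 7.40, 7.21, 7.25 and 7.02 in middle age, without overlap. The difference was 0.83 ± 0.16 (limma adjusted p = 0.120), and among the 12 fits (0.78 to 0.91) its call was lost only without middle-aged array 2. It was called in 6 of 10 other settings, and not with scan day (0.68, B of -0.99), slide (0.49) or the replicate number (0.74) as a block. Fgfr4, a fibroblast growth factor receptor, was higher by 0.52 ± 0.10, and its other 2 probes differed by 0.42 ± 0.47 and 0.40 ± 0.33, with the call lost without middle-aged array 2, 4 or 5 (0.48 to 0.57 over the 12 fits). Ccdc88 was higher by 0.54 ± 0.08 (limma adjusted p = 0.0226) and was called in all 12 fits and with scan day as a block.

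The 7 lower genes included a vascular, a synaptic, a chromatin and a cytoskeletal gene. Lrrc7, which encodes the postsynaptic scaffold densin, lay between 7.63 and 8.15 in young mice (median 7.91) and read 7.26, 7.02, 7.30, 7.50 and 7.34 in middle age, a difference of -0.61 ± 0.11 (limma adjusted p = 0.0885). It was called in all 12 fits that left out 1 array and not with scan day as a block. H1f2, a linker histone gene, lay between 11.33 and 11.85 and read 11.16, 10.94, 10.90, 10.89 and 11.06 (-0.54 ± 0.11), with the call lost without any 1 of middle-aged arrays 2 to 5 (-0.59 to -0.49). Apcdd1, an inhibitor of Wnt signalling, lay between 12.47 and 12.74 and read 12.03, 12.24, 12.10, 12.40 and 12.19 (-0.41 ± 0.08), and was also called with scan day as a block but lost its call without young array 3 or 6 or middle-aged array 1, 2, 3 or 5 (-0.46 to -0.36). Flna, the actin cross-linker filamin A, lay between 13.04 and 13.64 and read 12.94, 12.85, 12.76, 12.90 and 12.76 (-0.46 ± 0.10), and its other probes differed by -0.34 ± 0.11 and 0.23 ± 0.23, and the call held only without young array 1 or 2 (-0.51 to -0.41). Cd93, an endothelial surface receptor, was called on a dim probe at -1.92 ± 0.42 that was well above background on 6 of 7 young and 1 of 5 middle-aged arrays, with young array 1 at 7.67 and the other 6 between 4.74 and 5.19. Its brighter probe, well above background on all 12 arrays, differed by -0.45 ± 0.11 with B of -0.20. The call on the dim probe held in 5 of the 12 fits (-2.11 to -1.58). That probe met the filter through its young arrays, a choice that favours a lower middle-aged level. The transcripts TC1536622 and 5830454D03Rik differed by -0.46 ± 0.09 and -0.39 ± 0.08.

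Genes on the lists of connective tissue and vessel walls, which do not hold Cd93, were mostly lower without any of them passing the test. All 23 genes of meninges and fibroblasts had a lower middle-aged mean, with a median of -0.88 and 0 called in limma. At an unadjusted p under 0.05, 10 of them were lower and 0 higher, where 4.28% of all genes were lower and 7.39% higher. Their mean level had a median of 0.52 in young mice and lay between -1.33 and 0.07 in middle age, but young array 2 was at -0.98 and 2 other young arrays were at -0.19 and -0.07, so the ages overlapped. The median was -0.86 without young array 1, -1.29 with scan day as a block, -1.14 within the second scan day and -1.18 within the third. Col1a1, a chain of fibrillar collagen, lay between 9.33 and 10.78 in young mice (median 10.40) and read 8.98, 9.05, 9.02, 9.27 and 8.54 in middle age, without overlap. Its difference was -1.11 ± 0.32 (limma adjusted p = 0.318). Col3a1 differed by -1.72 ± 0.51 but overlapped, with young values from 7.55 to 10.37 and middle-aged values of 7.02, 7.41, 8.27, 8.38 and 6.83. Slc6a20a, a transporter of the meninges, differed by -1.49 ± 0.52 and Ccn3 by -1.15 ± 0.40.

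The wider matrix and vessel lists had smaller medians. Collagens and extracellular matrix had a median of -0.14 over 71 tested, with 0 called in limma, 17 lower and 1 higher at an unadjusted p under 0.05, but the median was 0.03 within the second scan day and -0.34 within the third. The basement membrane laminins Lamc1 and Lama4 differed by -0.34 ± 0.10 and -0.79 ± 0.23. Pericyte and smooth muscle genes had a median of -0.26 over 15 tested, with 0 called in limma and 6 lower at an unadjusted p under 0.05, -0.58 with scan day as a block, -0.41 without young array 1, -0.17 within the second scan day and -0.57 within the third. Atp13a5 differed by -0.60 ± 0.15 (limma adjusted p = 0.240) and had B of 0.40 with that block, and the contractile genes Myh11 and Des differed by -0.96 and -0.81 and the peptidase Anpep by -0.73. Endothelial genes had a median of -0.13 over 24 tested, with 0 called in limma and 3 lower at an unadjusted p under 0.05, among them Itm2a (-0.60 ± 0.14) and the adhesion gene Cdh5 (-0.40 ± 0.16). Border macrophage genes had a median of -0.28 over 16 tested, with 0 called in limma and 4 lower at an unadjusted p under 0.05, namely Plac8 (-0.81), Pf4 (-0.79), Dab2 (-0.34) and Stab1 (-0.32), with Pf4 at -0.49 without young array 2. The border macrophage median was -0.44 with scan day as a block. Over the 142 genes of these 5 lists, 108 were lower, where 45.09% of all genes were lower. At an unadjusted p under 0.05, 36 of the 142 were lower, where 4.28% of all genes were. The part of dissection in these differences was not tested.

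**Figure D4:**
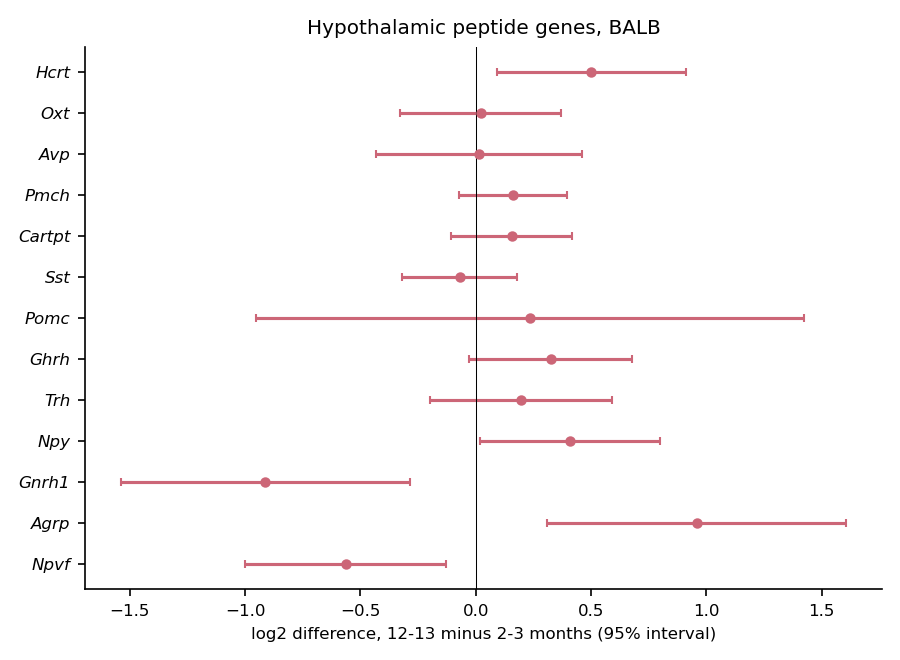
Log2 difference between 12-13 and 2-3 months (points) with its 95% interval from limma (bars) for 13 peptide genes of BALB hypothalamus. None of the 13 had B above 0. Agrp was at 0.96 and Gnrh1 at -0.91, while Oxt and Avp were at 0.02.

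Peptide genes that define hypothalamic neurons gave no calls. Of 43 neuropeptide genes tested, 0 were called in limma, where 0.233% of all genes were, and the smallest limma adjusted p was 0.240. At an unadjusted p under 0.05, 4 were higher and 2 lower, where 7.39% of all genes were higher and 4.28% lower. These counts do not set peptide genes apart from other genes. Agrp, released by hunger neurons of the arcuate nucleus, lay between 8.86 and 10.15 in young mice (median 9.19) and read 11.02, 10.12, 9.49, 9.98 and 10.67 in middle age. The highest young value was that of young array 1, and the ages overlapped through it. The difference was 0.96 (95% interval 0.31 to 1.60, limma adjusted p = 0.339), and 1.10 without young array 1. Npy, made by the same neurons, differed by 0.41 (0.02 to 0.80), and by 0.26 without middle-aged array 1. The satiety peptide genes Pomc and Cartpt differed by 0.23 (-0.95 to 1.42) and 0.16 (-0.11 to 0.42), so the interval for Pomc spans large changes in both directions. Hcrt, the wakefulness peptide orexin, differed by 0.50 (0.09 to 0.91), with young array 2 at 15.18 and the other young arrays between 16.03 and 16.38. Pmch, the lateral hypothalamic melanin-concentrating hormone, differed by 0.16 (-0.07 to 0.40).

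The posterior pituitary hormone genes Oxt and Avp differed by 0.02 (-0.33 to 0.37) and 0.02 (-0.43 to 0.46). Among the releasing and inhibiting hormones, Trh differed by 0.20 (-0.20 to 0.59), Ghrh by 0.33 (-0.03 to 0.68) and Sst by -0.07 (-0.32 to 0.18). Gnrh1, which drives the reproductive axis, lay between 9.05 and 10.17 in young mice (median 9.58) and read 8.53, 8.79, 9.58, 7.93 and 8.61 in middle age, with 4 of 5 below all young arrays. Its difference was -0.91 (-1.54 to -0.29, limma adjusted p = 0.342). Npvf, a peptide that restrains that axis, differed by -0.56 ± 0.21. Ucn, a peptide of the stress hormone family, differed by 1.81 ± 0.45 with 3 of 7 young and 4 of 5 middle-aged arrays well above background, and by 0.42 with normexp background correction. Crh is not analysed here.

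Receptors and signalling genes of energy balance had a median of -0.01 over 61 tested, with 0 called in limma. They ranged from -0.84 (Lepr) to 0.77 (Ghsr). At an unadjusted p under 0.05, 1 was higher and 2 lower, where 7.39% of all genes were higher and 4.28% lower. These counts do not set the list apart from other genes. The higher gene was the ghrelin receptor Ghsr (0.77 ± 0.36, and 0.49 without young array 1). The lower ones were the hormone-processing enzyme Cpe (-0.26) and the thyrotropin-releasing hormone receptor Trhr (-0.24). The probe shown for the leptin receptor Lepr was well above background on 5 of 7 young and on 0 of 5 middle-aged arrays, with measured means of 4.87 and 4.04. It was tested through those young arrays alone, a choice that favours a lower middle-aged level. The ages overlapped, with young values from 3.04 to 6.26 and middle-aged values from 3.42 to 4.88 (limma adjusted p = 0.548). Hypothalamic transcription factors, which specify its neurons, had a median of 0.21 over 27 tested, with 0 called in limma and 5 higher and 0 lower at an unadjusted p under 0.05. Tbx3, a factor of arcuate neurons, differed by 0.49, Lhx1, a factor of the central clock, by 0.49, Foxb1 by 0.86, and Hmx2 by 1.14. Of the 27 factors, 19 had a higher and 8 a lower middle-aged mean, among the lower Lhx8 (-1.10) and Lhx6 (-0.58). With scan day as a block Foxb1 was at 0.53 and Hmx2 at 0.46, and without young array 2 Foxb1 was at 0.54.

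Markers of neighbouring regions varied with single arrays. Cortical and hippocampal genes had a median of -0.28 over 22 tested, 0 called in limma and a median of 0.00 with scan day as a block. At an unadjusted p under 0.05, 1 of them was lower, where 4.28% of all genes were. Their mean level lay between -0.33 and -0.25 on the middle-aged arrays and between -0.34 and 0.94 on the young arrays, where young arrays 2 and 6 were highest. On those arrays the vesicular glutamate transporter gene Slc17a7 read 9.31 and 8.00, against 2.33 to 6.70 in middle age, and the activity-induced gene Egr3 read 8.48 and 8.28, against 5.81 to 6.55. Thalamic genes had a median of -0.19 over 20 tested (-0.42 with scan day as a block, 0 called in limma, and 0 at an unadjusted p under 0.05), striatal genes 0.08 over 17 and cerebellar genes 0.03 over 17. Anterior pituitary genes varied widely within each age, from -2.09 to 1.45 in young and from -1.46 to 1.40 in middle-aged mice. The part of these markers in other differences was not tested.

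Glia, stress and housekeeping lists gave single members. Over all genes, 0.197% were called higher and 0.0363% lower, and 7.39% were higher and 4.28% lower at an unadjusted p under 0.05. Astrocyte genes had a median of -0.05 over 20 tested (0 called in limma, and 2 higher and 3 lower at an unadjusted p under 0.05). Reactive astrocyte genes had a median of 0.01 over 22 tested (-0.09 with scan day as a block) with C3 as the only call, while the small heat shock protein gene Hspb1 differed by -0.56 ± 0.20 and Ggta1 by 0.38 ± 0.14. Myelin genes had a median of 0.13 over 29 tested (-0.01 with scan day as a block, where Il33 lost its call) with Il33 as the only call, Hapln2, a matrix link protein of nodes, at 0.67 ± 0.16, the oligodendrocyte factor Nkx6-2 at 0.34 ± 0.10 and Ugt8a at -0.46 ± 0.17. Ribosomal protein genes had 65 of 82 above 0, a median of 0.08 (0.19 under 75th percentile scaling), 0 called in limma and 10 higher and 0 lower at an unadjusted p under 0.05, with Rps26 and Rpl37 both at 0.37. Circadian clock genes (median -0.05 over 26), immediate early genes (0.23 over 31), glucocorticoid-induced genes (0.13 over 22), cholesterol synthesis (-0.02 over 29) and senescence and DNA damage genes (0.01 over 22) had 0 called in limma, with 2, 2, 2, 4 and 0 higher and 1, 2, 0, 2 and 0 lower at an unadjusted p under 0.05.

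The mice of 20 to 23 months were fitted with the same young arrays, so their differences from young are given only beside those of middle age. Of the 38 genes higher in middle age, 37 were also above young in the aged mice (median 0.61), and 14 of 38 were above middle age (median of old minus middle-aged -0.10). These genes, and the 7 lower ones, were picked on the same young and middle-aged arrays. Their direction against young, and a fall back from middle age, can follow from that choice. C3 differed from young by 1.28 in middle age and 1.96 in aged mice, Itgax by 1.51 and 2.72, Ccl4 by 1.52 and 2.34 and Mpeg1 by 0.35 and 0.88. Cldn7 differed by 1.76 and 1.87, Il33 by 0.57 and 0.72, Galr2 by 0.83 and 0.51 and Sh3bgr by 1.04 and 0.51. All 38 study immune genes had a higher mean in aged than in middle-aged mice (median 0.52), on arrays among which the study chose the list. MHC class II genes had medians of -0.04 in middle age and 0.69 in aged mice relative to young, reactive astrocyte genes 0.01 and 0.63, and border macrophage genes -0.28 and 0.38. The 7 lower genes were also below young in aged mice, Flna by -0.46 and -0.12 and Lrrc7 by -0.61 and -0.27. The meningeal and fibroblast median was -0.88 in middle age and 0.11 in aged mice.

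**Figure D5:**
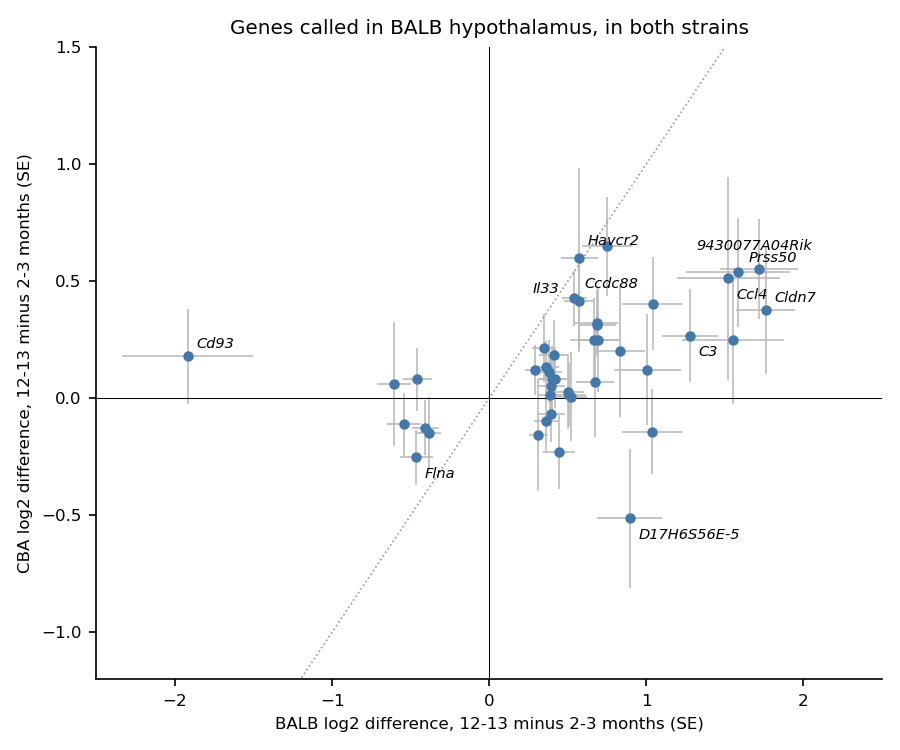
Log2 difference between 12-13 and 2-3 months in CBA hypothalamus (vertical axis) against that in BALB hypothalamus (horizontal axis) for the genes called in BALB that were tested in both strains. Bars are SE and the dotted line marks equal differences. Most genes higher in BALB lay above 0 in CBA but below the dotted line, and Ccdc88 was at 0.54 and 0.43.

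CBA hypothalamus at the same ages shares no array with the BALB comparison but was read on another array design, so values are given by gene and no fit spans both strains. In CBA, limma called 0 of 20152 genes (0% of those tested, and 3 genes without CBA young array 4), 757 genes had an unadjusted p under 0.05 and the smallest adjusted p was 0.541. Of the 38 genes higher in BALB, 36 were tested in CBA, 30 of these had a higher middle-aged mean (50.74% of the 17973 genes tested in both), the median difference was 0.16 and 6 were higher at an unadjusted p under 0.05. Of the 7 lower genes, 4 were lower in CBA (median -0.11). C3 differed by 0.27 ± 0.20 in CBA, Cldn7 by 0.38 ± 0.27, Il33 by 0.41 ± 0.22, Pcdhb2 by 0.40 ± 0.20, Ccdc88 by 0.43 ± 0.12 and Prss50 by 0.54 ± 0.23. Sh3bgr differed by -0.14 ± 0.18 and D17H6S56E-5 by -0.51 ± 0.30, and Itgax was not tested in CBA.

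List medians in the strains were as follows. The study immune genes had medians of 0.30 in BALB and 0.18 in CBA, where 32 of 34 tested were higher, and MHC class I genes 0.22 and 0.34, with 17 of 17 higher in CBA. C4b differed by 0.42 in BALB and 0.82 ± 0.24 in CBA, and Psmb8 by 0.55 and 0.51. Disease-associated microglial genes had medians of 0.25 and 0.05. The meningeal and fibroblast genes had medians of -0.88 and -0.64, with 1 of 21 above 0 in CBA, and Col1a1 differed by -1.11 ± 0.32 and -0.65 ± 0.20 and Col3a1 by -1.72 ± 0.51 and -0.96 ± 0.32. Hypothalamic transcription factors had medians of 0.21 and -0.12, Agrp differed by 0.96 and -0.14 and Gnrh1 by -0.91 and 0.42. Whether the strains differ was not tested.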

How the data were processed

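Hypothalamus RNA of male BALB and CBA mice was read on Agilent arrays, and each array was grouped by its label. The authors deposited the scanner output of Feature Extraction 9.1, in which each spot has a processed intensity, a linear brightness with local background subtracted. A series table of normalized log2 values was deposited too, and all 18 of its BALB hypothalamus columns matched their own scanner file best. Per their methods, they used quantile normalization and limma with B above 0 (in a supplement also an FDR p under 0.05), prepared technical replicates and chose 1 at random.

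Here control and outlier spots were left out, the log2 of the processed intensity was taken, repeat spots of a probe were averaged, and the 18 BALB (or 20 CBA) arrays were quantile normalized, which removes shifts shared by all genes. Of 41174 probes, 22951 were named through RefSeq and the rest keep the file's name (28786 gene names). The 28044 probes well above background on at least 5 of the 12 arrays were tested. A gene that passed through the 5 middle-aged arrays alone had to be higher there. Likewise, one that passed through young arrays alone would tend to be lower in middle age. limma 3.58.1 (R 4.3.3, lmFit and eBayes, prior share 0.01, all ages in 1 fit) gave differences, SE, 95% intervals, B and Benjamini-Hochberg adjusted p over all probes. A gene was called when any probe had B above 0 and is shown by its brightest tested probe, or if called by its brightest called probe. The number of arrays limits the precision, and the p-values measure the spread between arrays taken to be single mice.

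Named genes are the 12 largest called differences per direction, called genes on a list, up to 4 members with the smallest p of each list described, fixed peptide genes and Lepr, and marker genes. Members and the 45 lists were chosen with earlier results of these data known. Lists were described by counts and medians, with no test. Alternatives were scaling to the 75th percentile, normexp (offset 50), the filter, the series table, slide blocks, array weights, a replicate block, young and middle-aged arrays alone and leaving out each array. The scan day block, alone and without young array 1, was added after seeing the data. The steps were tested on simulated data. One probe sequence is not reported here.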

Additional observations from a re-analysis of the deposited data

Results flagged for a closer look

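Of 240 sets of values of 1 gene or list in 1 age group, 31 had a lowest or highest array farther from the rest than Dixon's test allows, where chance gives about 1 in 20, and 15 of the 31 were young array 1. On that array Itgax read 4.12 (other young arrays 5.25 to 5.75), Pcdhb2 4.47, Prss50 3.83, Ccl4 2.64, H2-Oa 3.27, Ghsr 3.23 and Tbr1 3.70, all lowest of their group. Cd93 read 7.67 there, Psmb8 10.83, Psmb9 10.74, Aif1 11.54 and Agrp 10.15, all highest. Its mean level was 0.42 for MHC class I, -0.46 for homeostatic microglia and -0.73 for protocadherin beta genes.

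Among the other young arrays, array 4 was highest for Sh3bgr (7.35), Havcr2 (8.31) and Myh11 (10.22). Array 2 was highest for Pf4 (10.46) and lowest for Foxb1 (8.01), Hcrt (15.18) and the complement level (-0.44).

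In middle age, array 3 was lowest for 5830454D03Rik (10.40) and Nr1h3 (8.88) and highest for Egr3 (6.55). Array 2 was highest for Pcdhb14 (9.27) and the interferon-induced level (0.41) and lowest for H2-M3 (9.28). Array 5 was lowest for Cd74 (9.01) and for collagens and extracellular matrix (-0.36), and array 1 was lowest for Pcdhb21 (10.03).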

How the results depend on the processing

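Over the 45 called genes and all settings, 580 values of the probe shown kept B above 0 and 449 did not. Genes with B above 0 numbered 27 with normexp background correction, 13 in the series table, 14 with slide as a fixed block, 22 with scan day as a block and 942 with array weights, and 19 to 129 when each array was left out. Genes with an adjusted p under 0.05, 6 in the report, numbered 13 with 75th percentile scaling, 3 with normexp, 2 in the series table, 4 without a filter, 1 with slide as a fixed block, 4 with young and middle-aged arrays alone, 3420 with array weights, 1 with scan day as a block, 3 with that block and without young array 1, and 1 to 13 when each array was left out. CBA gave 0 calls in limma except 3 without young array 4, so 0 to 3. The labels do not say that replicate numbers pair the samples, and the values do not settle it. Deviations of the 5 same-numbered pairs correlated at 0.0279 to 0.232, 2 of them over 0.1, and 3 of 5 arrays correlated best with their own number. With the replicate block, 22 genes had B above 0 and 1 an adjusted p under 0.05. Of 45 called genes, 20 were called with 75th percentile scaling, 21 with normexp, 11 in the series table and 13 with the scan day block. List medians moved beyond the spread of arrays for pericytes with the scan day block (-0.58) and under 75th percentile scaling for heat shock (-0.03), respiratory chain (0.16) and ribosomal genes (0.19). Causes were not tested.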
